A study of Mus musculus with 2 samples.

Results

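H3K9me2 was mapped by CUT&Tag, in which an antibody brings a tagging transposase to the marked chromatin, in activated B cells of C57BL/6 mice. There was 1 library from a B cell knockout of Jmjd1c (KO) and 1 from wild-type mice (WT). The labels give no allele, Cre driver, age or activating stimulus. Described here are 128 long protein-coding genes in which neither library had a called peak. They were chosen from the 20558 protein-coding genes of chromosomes 1 to 19 by 2 criteria. The span of the gene widened by 2 kb at either end, called the window below, had to be at least 300 kb long, and it had to overlap no peak in the KO list and none in the WT list. Of 546 genes of that length, 43 were left out by symbol (Wwox, Auts2 and genes whose symbols start with Cdh, Pcdh, Sema, Kcn, Cacna, Col, Adamts or Adgr), 7 of them without a peak. Windows that overlap were each counted. Gm37013, Gm38666 and Gm38667, which share sequence and peaks on chromosome 18 and each overlap 62 other coding genes, stayed in. Of the 503 that stayed, 128 were peak-free (25.4%, exact interval 21.7 to 29.5%) and 375, the comparison group, had a peak in at least 1 list. Since the peaks chose the members, their absence there is a description and not a finding.

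H3K9me2 is laid down mainly by the G9a and GLP methyltransferases, spreads over broad domains and is associated with silent chromatin, often at the nuclear lamina. Jumonji-domain demethylases of the family that holds Jmjd1c can remove it. Many of the longest mammalian genes serve neurons, lie in gene-poor sequence and are silent in lymphocytes, while other long genes are transcribed in B cells or in nearly every cell. No RNA was measured in the data used here, so statements on where a gene is used are background.

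The KO list rested on 34502392 tags and held 32149 peaks on chromosomes 1 to 19, X and Y, and the WT list on 33474010 tags with 31623 peaks. As each genotype had 1 library, differences between KO and WT could not be set against a spread between replicates, and no p-values are given. A window without a peak is one where no region passed the caller's threshold, which does not show that the mark was absent. The 8 B cell markers checked (Cd79a, Cd79b and others) and the 6 T cell markers had no peak, nor did 4 of 5 myeloid markers, where 88.6% of all autosomal coding genes had none. A repressive mark does not give expression, so these values do not check the cell type.

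The starts of 3 of the 10 longest members, all on the list of blood cell genes used below, are shown because the choice of members had named these genes. Inpp4b encodes a phosphatase of membrane phosphoinositides, Arhgap15 a Rac GTPase-activating protein found in leukocytes, and Zbtb20 a BTB zinc finger transcription factor with a role in germinal centre and plasma cells. Their RefSeq promoters (GRCm38.p6, 250 bases before to 50 after the start) are printed with that of Cntnap2, a neurexin relative of neurons from the comparison group whose promoter carried a peak in both lists. All 4 lie on the + strand. Capitals mark CG, the dinucleotide that is methylated in DNA and kept in CpG islands; it reads the same on both strands.
Inpp4b, chr8:81342312-81342611: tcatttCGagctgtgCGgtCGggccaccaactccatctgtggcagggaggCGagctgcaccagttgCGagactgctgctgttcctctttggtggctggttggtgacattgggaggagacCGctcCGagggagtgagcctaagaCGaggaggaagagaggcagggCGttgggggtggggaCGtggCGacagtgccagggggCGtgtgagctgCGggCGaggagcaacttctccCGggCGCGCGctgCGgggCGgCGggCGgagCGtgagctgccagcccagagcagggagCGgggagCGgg
Arhgap15, chr2:43748574-43748873: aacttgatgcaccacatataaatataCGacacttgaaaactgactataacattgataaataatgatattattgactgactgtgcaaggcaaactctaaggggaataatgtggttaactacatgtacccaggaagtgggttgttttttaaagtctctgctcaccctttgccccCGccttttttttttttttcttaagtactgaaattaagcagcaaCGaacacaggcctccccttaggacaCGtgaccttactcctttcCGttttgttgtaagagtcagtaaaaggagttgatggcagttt
Zbtb20, chr16:43247034-43247333: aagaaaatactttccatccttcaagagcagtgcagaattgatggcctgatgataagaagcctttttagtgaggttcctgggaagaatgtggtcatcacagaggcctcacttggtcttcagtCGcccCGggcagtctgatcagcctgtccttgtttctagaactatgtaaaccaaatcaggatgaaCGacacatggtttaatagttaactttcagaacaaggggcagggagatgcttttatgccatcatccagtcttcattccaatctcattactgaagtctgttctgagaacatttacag
Cntnap2, chr6:45059811-45060110: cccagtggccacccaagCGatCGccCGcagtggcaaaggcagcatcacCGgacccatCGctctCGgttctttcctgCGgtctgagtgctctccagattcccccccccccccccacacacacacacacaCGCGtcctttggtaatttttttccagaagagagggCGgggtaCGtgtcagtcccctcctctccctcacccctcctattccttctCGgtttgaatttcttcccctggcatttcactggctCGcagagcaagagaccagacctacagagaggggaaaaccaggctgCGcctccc

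The Inpp4b promoter held 25 CG, with an observed to expected ratio of 0.788 and 68.3% G+C. Arhgap15 had 5 CG (ratio 0.446, 38.7% G+C) and Zbtb20 had 3 (ratio 0.213, 43.3% G+C), so the 3 printed promoters of peak-free genes are unlike in CG content. The only Zbtb20 start in the table lay 372 kb inside the annotated span, and the Arhgap15 promoter was the outer of 2. The Cntnap2 promoter, the outer of 2, held 14 CG (ratio 0.567) and was overlapped by a KO peak of 1496 bp (chr6:45059662-45061157) and a WT peak of 1527 bp (chr6:45059136-45060662). From the printed promoters of the peak-free genes, the nearest KO peak was 805 kb away for Inpp4b, 272 kb for Arhgap15 and 467 kb for Zbtb20, and the nearest WT peak 751, 272 and 452 kb.

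RefSeq promoters were at hand for 104 members (81.3%). The outermost promoter of a member had a median of 21 CG, with quartiles of 10.8 and 31. All 104 held at least 1, as did all but 4 of the 277 matched genes of the comparison group and all but 816 of the 16457 matched autosomal coding genes. There were 15 or more CG in 68 members (65.4%), against 48.8% of all autosomal coding genes that matched the table, and fewer than 5 in 11 (10.6%), against 28.1%. Those 11 were Zbtb20, the nuclear factor gene Nfia, Skint5, the dystrophin relative Utrn, Rbfox3, the Notch coactivator Maml2, Pdzrn4, Pik3c2g, the cytoskeletal linker Macf1, the osteoblast and T cell factor Runx2 and the melanosome transporter Oca2. In the comparison group 277 of 375 genes (73.9%) matched, under the 80% needed, so a comparison of promoters between the groups is void. Of these 277, 55.2% held 15 or more CG and 13.7% fewer than 5. Among matched genes, the share with 15 or more CG was thus above that of all coding genes in both groups. Whether the groups differ cannot be told.

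The longest member was Inpp4b, on chromosome 8 from 81342266 to 82134312 (build mm10), whose window of 796 kb held 0 KO and 0 WT peaks. Its surroundings were not free of peaks. Within 1 Mb of the window there were 16 KO and 18 WT peaks, 14 of them in each list on the side of higher coordinates, where the first lay 11.1 kb beyond the window in both lists. On the other side the stretch without a peak in either list ran on for 749 kb. Zbtb20, on chromosome 16 from 42875689 to 43634392, had 38 KO and 28 WT peaks in its flanks, most of them (33 KO and 22 WT) on the side of lower coordinates, 1 of them 78.5 kb from the window. Arhgap15, on chromosome 2 from 43748798 to 44395953, had 65 KO and 68 WT flanking peaks, of which 61 KO and 62 WT lay on the side of lower coordinates. Per Mb of flank this was 32.5 KO and 34 WT peaks for Arhgap15 and 19 and 14 for Zbtb20, above the medians of 12.5 and 11.5 in the comparison group, and 8 and 9 for Inpp4b, below them.

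**Figure D1:**
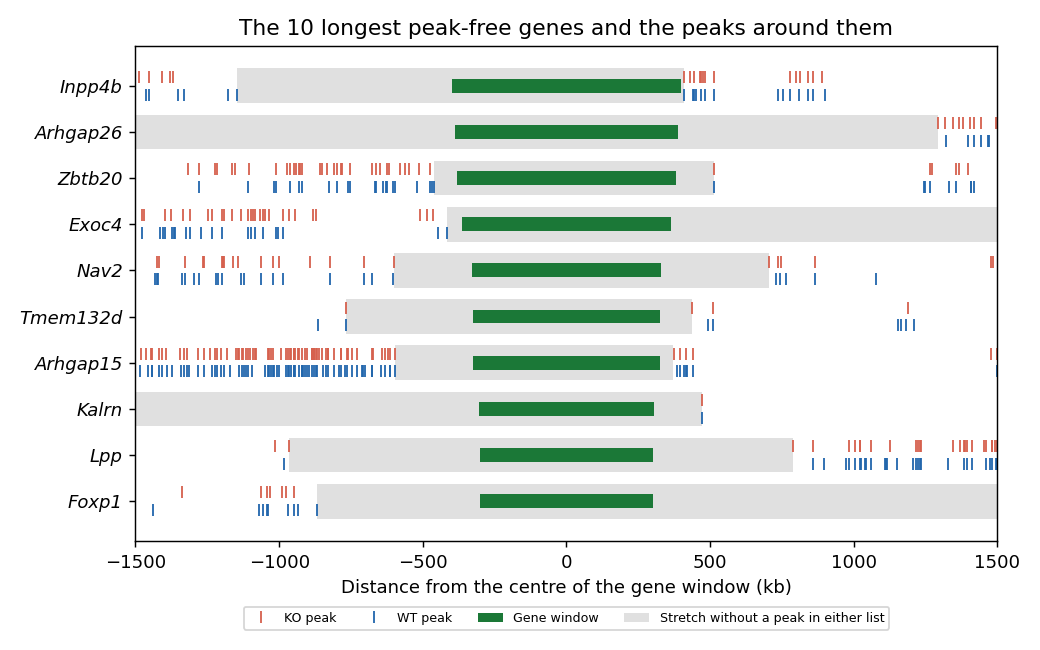
Positions of KO peaks (upper ticks) and WT peaks (lower ticks) around the 10 longest peak-free genes, in kb from the centre of each gene window (green bar). Grey bars are the stretch without a peak in either list, which runs past the plotted range for Arhgap26, Exoc4, Kalrn and Foxp1; Arhgap15 has a dense row of peaks on 1 side in both lists.

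Other long members were flanked quite differently. Arhgap26, which encodes a GTPase-activating protein, on chromosome 18 from 38601617 to 39376285, had 5 KO and 1 WT peaks within 1 Mb and sat in a peak-free stretch of 2.80 Mb with 49 coding genes. Kalrn, which encodes an exchange factor best known from neurons, had 1 KO and 1 WT flanking peak and sat in a stretch of 3913 kb, also with 49 coding genes. Exoc4, a subunit of the exocyst that tethers secretory vesicles, had 24 KO and 15 WT peaks on 1 side and 0 on the other. Foxp1, a forkhead factor needed for B cell development, had 6 KO and 8 WT peaks on 1 side and 0 on the other, in a stretch of 2598 kb. The remaining 3 of the 10 longest were the cytoskeletal gene Nav2 (18 KO and 19 WT flanking peaks), the membrane protein gene Tmem132d (4 and 8) and the focal adhesion gene Lpp (14 and 20).

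Windows of members ran from 300 to 796 kb, with a median of 388 kb, and those of the comparison group from 301 to 2275 kb, with a median of 482 kb. The share of genes without a peak was lower in each length class above 50 kb than in the class before it. Over all autosomal coding genes it was 88.6%, and among genes outside the left-out families it was 93.0% of 9667 windows under 20 kb and 58.8% of 396 windows of 200 to 300 kb. Among long genes it was 38.3% at 300 to 400 kb (74 of 193, exact interval 31.5 to 45.6%), 27.7% at 400 to 500 kb (31 of 112, 19.6 to 36.9%) and 20.9% at 500 to 700 kb (19 of 91, 13.1 to 30.7%). It was 7.02% at 700 to 1000 kb (4 of 57, 1.95 to 17.0%). None of the 50 genes of 1 Mb or more was peak-free, which by the exact interval allows up to 7.11%. Longer windows also offer more room for a peak, and how much of the relation this makes up was not tested. Peaks per Mb of window, which do not grow with length as such, were 15.5 in KO and 15.2 in WT at 300 to 400 kb. They were 16.6 and 15.6 at 400 to 500 kb and 19.9 and 19.6 at 500 to 700 kb. Beyond that they rose no further, with 19.8 and 18.6 at 700 to 1000 kb and 18.6 in both lists at 1 Mb or more.

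**Figure D2:**
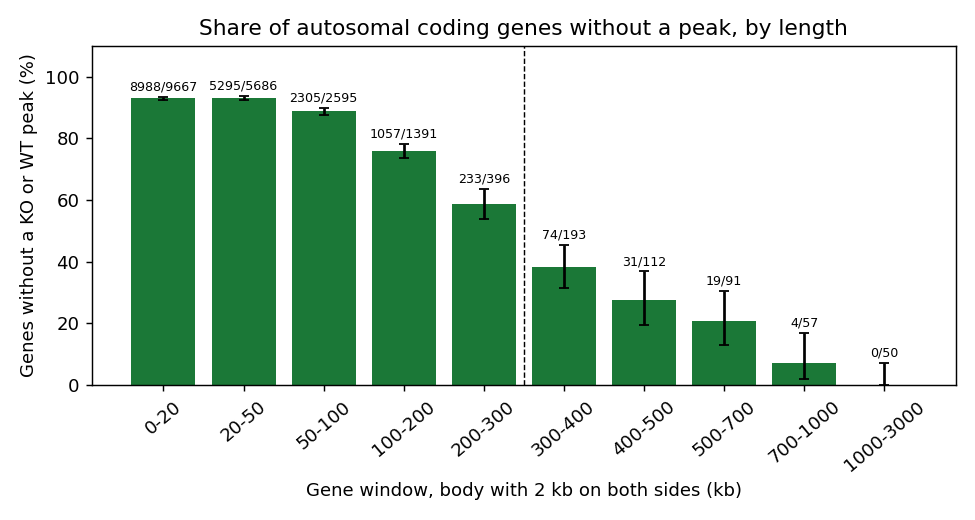
Share of autosomal coding genes without a KO or WT peak (bars, %) by window length in kb, with exact 95% intervals for counting error and the number of peak-free genes over all genes of the class; the left-out symbols are not included. The dashed line is the 300 kb limit, and the share is 93.0% under 20 kb, 93.1% at 20 to 50 kb and lower in each class from there, down to 0 of 50 at 1 Mb or more.

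The length limit cut through a continuous range. The members just above it were Asap1 (300.1 kb), Rptor (300.7 kb), Oca2 (300.9 kb), Myo1d (302 kb) and AW554918 (303 kb), and the peak-free genes just below were Trio (299 kb), Fndc3b (299 kb), Skap1 (299 kb), Itga9 (298 kb) and Syne2 (297 kb). Just outside the limit on peaks were 11 long genes with exactly 1 peak over both lists, 4 of them in KO and 7 in WT. These were Galnt17, Tln2, Cntn6 and Nbas in KO, and Unc5d, Skint6, Caln1, Cep112, Fstl4, Rsrc1 and Cntnap4 in WT. The authors' −log10 q of the single peak was 2.26 to 3.48, against a median of 3.01 over the whole KO list and 3.27 over the WT list.

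The KO and WT lists picked out nearly the same long genes. Without a KO peak were 138 of the 503, and without a WT peak 136, and the 128 members made up 92.8% of the KO set and 94.1% of the WT set. A peak in KO and none in WT was found in 8 long genes (1.59%), among them Arhgap24 with 2 KO peaks, and a peak in WT and none in KO in 10 (1.99%), among them Sdk1 and Pde10a with 2 WT peaks each. Over all autosomal coding genes these shares were 1.98% and 1.77%. None of the 18 genes had more than 2 peaks. Both lists had a peak in 357 long genes (71.0%), against 7.68% of all autosomal coding genes.

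Coding genes were denser around members than around the long genes with peaks, which were longer in the median. The median number of coding genes per Mb, counted by midpoint in 1 Mb on each side of the window, was 8.5 for members (quartiles 5.0 and 13.5) and 5.0 for the comparison group (3.0 and 7.5). This measure was not used to choose the members, but genes are not replicates and neighbouring genes share flanks, so it is given without a test. The order was the same in each length class, with medians of 9.5 and 5.5 at 300 to 400 kb, 7.0 and 5.5 at 400 to 500 kb, 8.0 and 5.5 at 500 to 700 kb and 7.75 and 4.0 at 700 kb or more, where only 4 members fell. The ranges overlapped widely, from 1.5 to 34 for members and from 0 to 31 in the comparison group.

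**Figure D3:**
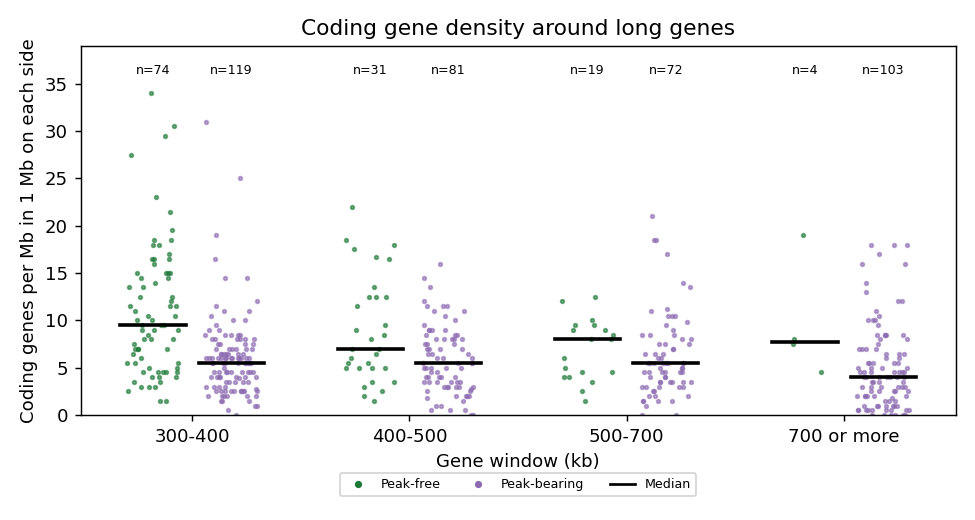
Coding genes per Mb in 1 Mb on each side of each long gene (points), by window length, with peak-free genes to the left of peak-bearing genes and horizontal lines at the medians. The median of peak-free genes is the higher in all 4 classes, and the points overlap.

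The contrast sat mainly at the dense end. Of the 125 long genes with 9.0 or more coding genes per Mb, 63 were peak-free (50.4%, exact interval 41.3 to 59.5%). The share was 19.5% of 118 genes at 6.0 to 8.5 per Mb, 22.3% of 112 at 3.9 to 5.5 and 11.5% of 148 at 3.5 or fewer (6.84 to 17.8%). Within windows of 300 to 400 kb the densest class reached 72.4% (42 of 58), against 20.8% (11 of 53), 31.7% (13 of 41) and 19.5% (8 of 41) in the other classes in the same order. Above 600 kb it was 3 of 22, then 2 of 22, 3 of 33 and 2 of 58. Across all 503 genes Spearman's rank correlation between coding genes per Mb and peaks per Mb of window was -0.29 in KO and -0.30 in WT; this includes the windows at 0 peaks that chose the members, and it describes genes of the same libraries.

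Members in the most gene-dense sequence included Dock3, a Rac exchange factor of neurons (34 coding genes per Mb), Rptor, the scaffold subunit of mTOR complex 1 (30.5), the Rac exchange factor gene Tiam1 (29.5), the homeobox gene Cux1 (27.5) and Babam2, of a BRCA1 complex (23). At the other end, 17 members lay at 3.5 or fewer. They included Arhgap15, the F-box gene Fbxl17, the anchoring protein gene Akap13 and Gtdc1 (1.5 each), Fam172a (2.0), Foxp1, Tbc1d5 and Cep128 (2.5 each), the RNA demethylase gene Fto and the muscarinic receptor gene Chrm3 (3.0 each), and Pard3, Itpr1 and Fars2 (3.5 each). Low gene density did not go with a peak in every case.

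The flanks of members held fewer peaks than those of the comparison group, and more with distance. Medians over genes, in peaks per Mb within 1 Mb on each side, were 4.5 for members and 12.5 for the comparison group in KO, and 5.25 and 11.5 in WT. These medians differed by -8.0 per Mb in KO and -6.25 in WT. At a q of 1e-05 or lower, with both groups drawn anew, the differences shrank to -0.50 and -1.0. In the first 25 kb beyond the window, members had 1.41 KO and 0.938 WT peaks per Mb and the comparison group 20.5 and 20.2. At 200 to 300 kb the values were 6.05 KO and 6.25 WT for members against 14.9 and 14.3, and at 900 to 1000 kb 10.3 and 10.7 against 14.7 and 14.2. The 2 curves were still apart at 1 Mb. The flanks come from the same lists as the rule, and nearby sequence tends to be alike, so these values are a description.

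**Figure D4:**
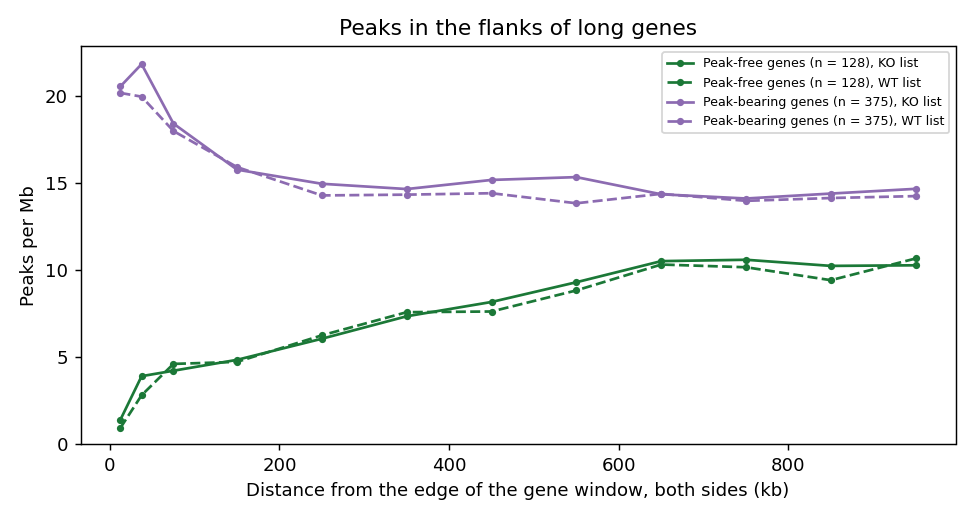
Peaks per Mb by distance in kb from the edge of the gene window, both sides pooled over genes, for peak-free genes (green) and peak-bearing genes (purple) in the KO list (solid) and the WT list (dashed). Green lines climb from 1.41 (KO) and 0.938 (WT) in the first 25 kb to 10.3 and 10.7 near 1 Mb, and purple lines fall from 20.5 and 20.2 to 14.7 and 14.2.

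The nearest peak of either list lay at a median of 267 kb from a member's window, with quartiles of 68.4 and 571 kb. It was within 50 kb for 24 members and beyond 500 kb for 41. The nearest were at Prdm16, a PR-domain transcription factor gene (a KO peak 1.82 kb away, the nearest WT peak 437 kb away), Arl15 (4.75 kb in KO, 72.1 kb in WT), Psd3 (6.69 and 6.52 kb), Inpp4b, and Cep128 (25.9 and 11.2 kb). The farthest were Btbd9 (4762 kb in KO and 5359 kb in WT), Bcas3 (3254 kb in both), Rbfox3 (2981 kb in both), Tanc2 (3028 and 2756 kb) and Megf11 (2661 kb in both). No peak of either list lay within 1 Mb of 15 of the 128 members, and this was so for 6 of the 375 genes of the comparison group. At 51 members flanking peaks lay on 1 side only, as at Exoc4 and Foxp1. Flank peaks summed over members numbered 2058 in KO and 2007 in WT. More KO than WT peaks flanked 52 members, more WT than KO peaks 45, and equal numbers 31.

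Peak-free stretches ran well beyond most members. The stretch between the peaks on either side had a median of 1795 kb (403 to 10490 kb) and held a median of 15 coding genes by midpoint. The 128 members lay in 117 separate stretches, which had a median of 1666 kb when each was counted once. The largest shared one, 8938 kb on chromosome 11, held Slc39a11, Rbfox3 and Rptor among 204 coding genes, and 9 others held a pair, such as Prkca and Tanc2, Bcas3 and Msi2, Runx2 and Supt3 or Grik4 and Dscaml1. Btbd9 lay in the longest, 10490 kb on chromosome 17 with 305 coding genes. By contrast 6 members were the only coding gene in their stretch, among them Skint5, Cep128, Pdzrn4, Setbp1 and Tcf4. Stretches of at least 300 kb without a peak are common. There were 1226 on the autosomes, with 54.0% of their span and 79.8% of coding genes, and a median of 635 kb. By the rule a stretch around a member holds a whole gene window, which favours long stretches. The medians are therefore not on like terms.

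By chromosome, the share of long genes that were peak-free ran from 6.90% on chromosome 10 (2 of 29) and 10.7% on chromosome 3 (3 of 28) to 43.3% on chromosome 4 (13 of 30), 42.1% on chromosome 17 (8 of 19) and 41.7% on chromosome 11 (10 of 24). Over all their length, chromosome 3 had 16.9 KO and 16.5 WT peaks per Mb and chromosome 10 had 15.7 and 15.2, against 6.75 and 6.55 on chromosome 11. Peak density did not order them all, since chromosome 13 (14.8 KO and 15.4 WT peaks per Mb) had 10 of 25 long genes peak-free and chromosome 19 (6.28 and 5.78) had 2 of 10.

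Function was described by 7 lists written from general knowledge, with earlier results of these data known. They cover 78 of the 128 members, and a gene can be in several. Exact intervals cover counting error and treat genes as independent. The peak-free share was highest among regulators of small GTPases, 13 of 17 long genes (76.5%, 50.1 to 93.2%), against 25.4% of all long genes. It was 26 of 40 (65.0%, 48.3 to 79.4%) for cell maintenance genes, a list that also holds RNA-binding genes of neurons such as Rbfox1 and Rbfox3. The haematopoietic and lymphocyte list had 11 of 18 (61.1%, 35.7 to 82.7%) and transcription and chromatin regulators 19 of 45 (42.2%, 27.7 to 57.8%). Cytoskeleton and muscle genes, with 9 of 33 (27.3%, 13.3 to 45.5%), were near the share of all long genes. Lower were signalling enzymes, with 6 of 47 (12.8%, 4.83 to 25.7%), a list that also holds calcium channel genes such as Itpr1 and Ryr2. Lowest were synapse and adhesion genes of neurons, with 7 of 124 (5.65%, 2.30 to 11.3%). Inpp4b, Arhgap15 and Zbtb20 had been named by the choice of members. Without them GTPase regulators had 12 of 16, signalling enzymes 5 of 46 and transcription regulators 18 of 44, against 125 of 500 long genes.

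**Figure D5:**
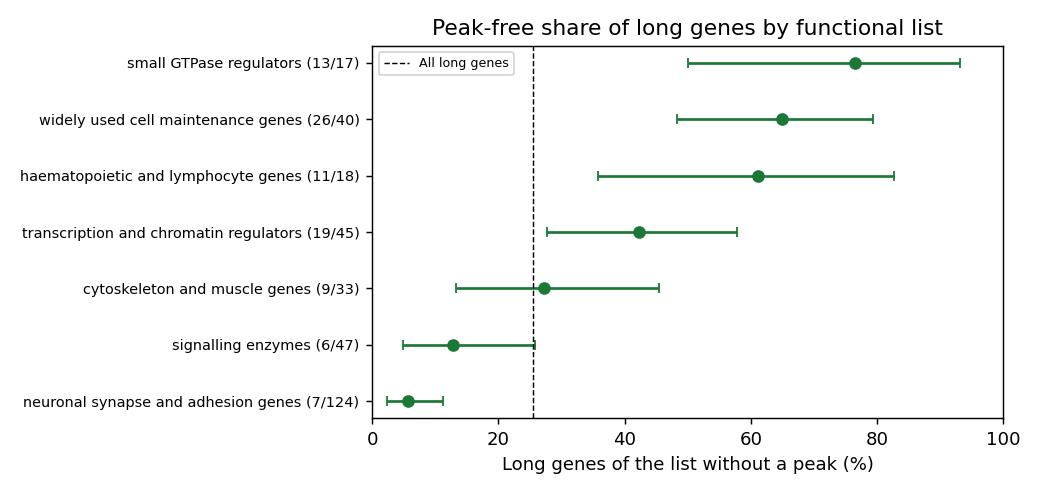
Share of the long genes of each functional list that had no KO or WT peak (points, %), with exact 95% intervals for counting error and the numbers behind each; the dashed line is the 25.4% of all long genes. Small GTPase regulators lie highest with 13 of 17 and neuronal synapse and adhesion genes lowest with 7 of 124.

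Lists differ in gene length, so the shares were also taken at 300 to 500 kb, where 34.4% of all long genes were peak-free (105 of 305). There the cell maintenance list had 21 of 24, GTPase regulators 7 of 9, transcription regulators 16 of 31, the lymphocyte list 4 of 7, cytoskeleton and muscle genes 7 of 24, signalling enzymes 5 of 27 and the neuronal list 5 of 39. At 500 to 1000 kb, against 23 of 148 of all long genes (15.5%), the lymphocyte list had 7 of 11, GTPase regulators 6 of 8, cell maintenance genes 5 of 11, cytoskeleton and muscle genes 2 of 5, transcription regulators 3 of 14, signalling enzymes 1 of 15 and neuronal genes 2 of 50. In the most gene-poor sequence, at 3.5 or fewer coding genes per Mb, 17 of 148 long genes were peak-free. Among these gene-poor loci, 1 of 55 neuronal genes was peak-free, as were 3 of 4 GTPase regulators, 4 of 9 cell maintenance genes, 2 of 3 lymphocyte genes, 1 of 13 transcription regulators, 1 of 8 signalling enzymes and 1 of 5 cytoskeleton and muscle genes. Genes named by the choice of members are still in these counts. At 500 to 1000 kb the lymphocyte list includes Inpp4b, Zbtb20 and Arhgap15, and the GTPase list Arhgap15. Arhgap15 is also among the gene-poor genes of both lists.

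Of the long genes on the haematopoietic and lymphocyte list, those without a peak were Inpp4b, Zbtb20, Arhgap15, Foxp1, Lrba, Dock2, Elmo1, Aff3, Ebf1, Bach2 and Tcf4. The list was written from general knowledge and need not hold every long gene with a role in blood cells. Ebf1 specifies the B lineage, Bach2 holds back plasma cell differentiation, Tcf4 encodes an E protein of B and dendritic cells, Dock2 is the Rac exchange factor of leukocyte migration and Elmo1 a partner of Dock proteins. Lrba takes part in the traffic of receptors in lymphocytes, and Aff3 encodes a lymphoid member of a family of elongation factors. Leaving out the 3 genes that the choice of members had named, 8 of 15 were peak-free (53.3%, against 125 of 500 long genes without them), and that these B cell regulators lack peaks was in part known beforehand. The peak-free genes of this list had a median of 5.0 coding genes per Mb, against 7.0 for those with peaks, and ranged from 1.5 at Arhgap15 to 9.5 at Lrba, 12 at Elmo1 and 12.5 at Aff3.

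The other 7 of this list had peaks, in most cases few. Prkcb, the protein kinase C form that couples the B cell receptor to NF-kB, and Vav3, an exchange factor of antigen receptor signalling, had 1 KO and 1 WT peak each. Rora and Tox, transcription factor genes of T cells and innate lymphoid cells, had 2 and 2 each, and Arhgap24 had 2 in KO and 0 in WT. The cyclic AMP phosphodiesterase gene Pde4b had 12 KO and 8 WT peaks and Mecom, a stem cell factor gene, 28 and 29. So 5 of these 7 had at most 4 peaks over both lists, which was true of 51 of the 375 genes of the comparison group.

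Among regulators of small GTPases the peak-free genes included Arhgap15, Arhgap26, Kalrn, Dock2, Dock3, Elmo1, Tiam1 and Arhgef28, and genes that act on Arf and Rab proteins (Psd3, Agap1, Asap1, Iqsec1, Tbc1d5). The 4 with peaks were Arhgap24 and Vav3 with few, and Dock1 (14 KO and 13 WT) and Dock4 (3 and 5). Members of wide use included Rad51b of recombination repair, the membrane traffic genes Exoc4, Exoc6b, Trappc9, Vps13b and Vti1a, the spindle checkpoint gene Mad1l1 and the mitochondrial enzyme genes Pcca and Fars2. Those of the list with 1 peak in each list were Cdkal1, Gphn and Nedd4l. On the list of signalling enzymes, those without a peak were Inpp4b, the protein kinase C genes Prkca and Prkce, the inositol trisphosphate receptor genes Itpr1 and Itpr2, and the phospholipase C relative Plcl1. Not all of these are enzymes, as Itpr1 and Itpr2 encode calcium channels.

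The 7 peak-free genes of the neuronal list were Nav2, Tmem132d, Chrm3, Shank2, a scaffold of excitatory synapses, Grik4, a kainate receptor subunit, Sorcs2, a sorting receptor, and Dscaml1, an adhesion molecule. These genes had a median of 10 coding genes per Mb, against 4.0 for the neuronal genes with peaks, and ranged from 3.0 at Chrm3 and 4.5 at Tmem132d to 21.5 at Dscaml1. Rbfox3, whose product NeuN marks neurons, had 0 peaks at 18 coding genes per Mb.

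Outside the lists were 50 members. Among them, chosen for mention after their values were seen, were the enzyme genes Adk (adenosine kinase), Gmds (a step of GDP-fucose synthesis) and Msra (repair of oxidised methionine), the cohesin gene Stag1, Rptor, Babam2, the oestrogen receptor gene Esr1 and the GABA-B receptor gene Gabbr2. Skint5 belongs to a multigene family of skin and thymus and is uncertain, as reads can be placed on the wrong copy.

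Relatives could differ widely in peaks, and some of them also in length. Grouped by the stem of the symbol, after the values were seen, 66 stems were shared by at least 2 long genes. A shared stem need not mean related genes, as with Unc13c and Unc5c. In 16 of these stem groups some were peak-free and some not, in 4 all were peak-free (Exoc, Itpr, Maml, Vps) and in 46 none was. Some mixed groups were split by very few peaks. Their only genes with peaks were Cep112 and Skint6, with 1 WT peak each, or Arhgap24 and Zbtb7c, with 2 KO peaks each. Foxp1 had 0 peaks over 601 kb while Foxp2, a relative known for its role in the brain, had 35 in KO and 30 in WT over 545 kb, both in gene-poor sequence (2.5 and 1.0 coding genes per Mb). Nav2 had 0 over 655 kb and Nav3 had 24 KO and 17 WT peaks over 778 kb. Hecw2 had 0 over 392 kb and Hecw1 9 and 9 over 301 kb. In the Nav pair, as in those of Pard, Rbfox and Frmd, the relative with peaks was the longer. Pard3, of the polarity complex, had 0 over 553 kb and Pard3b 33 and 31 over 1008 kb. Rbfox3 had 0 over 426 kb and Rbfox1 12 and 7 over 1532 kb, and Frmd4b had 0 over 335 kb and Frmd4a 14 and 8 over 600.4 kb. Dock2 and Dock3 had 0, whereas Dock1 and Dock4 had peaks. In 11 of the 16 mixed stem groups the peak-free members lay at the higher mean gene density, and in 5 they did not, among them Pard3 (3.5, against 5.5 for Pard3b) and Frmd4b (4.5, against 11.2 for Frmd4a). Dnah7a had 0 peaks while Dnah7b had 6 KO and 1 WT and Dnah7c 7 and 9; these dynein genes are close copies and their counts are uncertain.

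The longest genes of the comparison group were the phosphatase gene Ptprd (2275 kb, 12 KO and 4 WT peaks), Cntnap2 (69 and 90), Lsamp (15 and 13), Lrp1b (35 and 37), Macrod2 (47 and 56), Dlg2 (95 and 98), Csmd1 (15 and 16), Nrxn3 (23 and 19), Fhit (40 and 42) and Ctnna3 (16 and 17), most of them adhesion or synapse genes. Among the highest peaks per Mb over both lists together were those in Edil3 (83.0 KO and 105 WT), Agmo (87.1 and 72.6), Prex2 (70.0 and 82.7) and Nbea (64.0 and 78.2).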

How the data were processed

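The data were peak lists of H3K9me2 CUT&Tag from activated B cells, 1 KO and 1 WT library. Bowtie2 2.4.2, Trim Galore 0.6.6, deepTools, HOMER, Picard, SAMtools 1.11 and the build mm10 appear in the submitters' processing notes, which give them no role here. The authors ran MACS2 2.2.7.1, per the file headers, on each library alone, for broad regions at a q of 0.01, with all duplicates kept, no control and a local background window of 10000 bp. A marked domain much wider than this window raises its own background and can go without a peak, which bears on any gene called peak-free. Per the file headers, the fragment length d was 189 bp in KO and 292 bp in WT, so peak widths, pileup and q are not on 1 scale. The deposited pileup is a coverage signal, the deposited q-value and p-value columns are −log10 values, and the deposited fold enrichment is a ratio to local background. Only q and pileup were used, to filter peaks or describe single ones.

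Genes came from RefSeq for GRCm38.p6, the assembly behind mm10, after 348 genes on scaffolds were set aside. An overlap of 1 bp counted. Windows, flanks (clipped to the span of genes and peaks) and exact Clopper-Pearson 95% intervals were computed in Python 3.11.15 with pandas 2.3.3, NumPy 2.4.6 and SciPy 1.17.1, and the overlap step was tested on simulated peaks. Intervals cover counting error only. The members, the lists and the tests were chosen with earlier results of these data known. Named genes were Inpp4b, Arhgap15 and Zbtb20, the 10 longest of each group, the 5 densest of the comparison group, those at the limits of length, and of distance to a peak (5 each side), 10 with exactly 1 peak, and long members of the lists. Other genes, such as Cntnap4 (the 11th with 1 peak), those by gene density, promoter, stretch or family, were chosen after their values were seen. Alternatives are given in the closing section. Some genes that the rule names are not reported here.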

Additional observations from a re-analysis of the deposited data

Results flagged for a closer look

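Peaks outside the autosomes entered no comparison. On the X chromosome, 22 coding genes of 300 kb or more outside the left-out families held 180 KO and 186 WT peaks. Of these 22, 2 were peak-free (9.09%, exact interval 1.12 to 29.2%), Pola1, which encodes the catalytic subunit of DNA polymerase alpha, and Sh3kbp1, an adaptor gene of receptor endocytosis.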

How the results depend on the processing

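The number of peak-free long genes was 128 (25.4% of long genes). It was 125 with 10 kb on both sides, 128 with no flank, 138 and 136 with the KO or the WT list alone, 139 with up to 1 peak allowed, 129 without peaks of a pileup of 100 or more, 135 with no symbol left out, and, as alternatives chosen after seeing the data, 130 with the X chromosome and 128 with KO peaks widened by the 103 bp difference in d. It was 238 (47.3%) at a q of 1e-05 or lower, where fewer peaks are counted, 361 (40.2%) with a limit of 200 kb and 23 (11.6%) with 500 kb. The difference in coding gene density, 3.5 per Mb higher in members, was 2.5 to 4.0 under all 14 alternatives. The difference in flank peak density, -8.0 per Mb in KO and -6.25 in WT, kept its sign under all 14 alternatives. It was smallest at the stricter q (-0.50 in KO and -1.0 in WT), where fewer peaks are counted, and was -5.0 in KO with a limit of 500 kb. Why it shrank was not tested. The comparison of promoter CG is void for want of matches; its median difference of 4.0 was 7.5 with 200 kb and -2.5 with 500 kb, and the cause was not tested. No paired analysis was possible because each genotype has 1 library. Depth limits which regions can pass the caller's threshold, and no depth beyond 34502392 (KO) and 33474010 (WT) tags was tried.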
